A study of Mus musculus with 4 samples.

Results

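The genes described here make the proteins that build ribosomes. The list of 45 genes was given by symbol, and a gene was taken from every probe set whose only symbol in the platform annotation was that gene, as the mean of those probe sets. Of the 45 genes, 44 were measured, out of 19938 genes on the arrays, and Noc2l was not analysed here. Of the 44, 41 had 1 probe set each and Fbl, Wdr12 and Ddx18 had several. RNA came from the colon of male C57BL/6 mice of 11 weeks that ate a high-fat, low-calcium diet (40% of energy as fat) for 14 days, either as such (control) or with heme at 0.5 µmol/g. Laser capture microdissection took the surface cells and, separately, the crypt cells of each mouse. RNA of 4 control mice or of 3 heme-fed mice was pooled for each compartment, and each pool went onto 1 array. The 4 arrays are called control surface, heme surface, control crypt and heme crypt. All groups shared the strain, sex, age and base diet, and within a diet both compartments came from the same animals.

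Ribosomes are assembled in the nucleolus. RNA polymerase I transcribes a long precursor rRNA, small nucleolar ribonucleoproteins (snoRNPs) guide its methylation, pseudouridylation and first cuts, and separate sets of assembly factors then shape the small and the large subunit. Transcription of many of these genes follows cell growth and is raised by the transcription factor Myc. In the colon, dividing progenitors lie in the crypts and differentiated colonocytes lie at the surface.

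With 1 array per group there was no replicate spread, so nothing was tested and neither p-values nor SDs are given. Values are log2 expression values, and comparisons are differences of log2 values. A gene entered a comparison when at least 1 of its arrays reached 5.75, the median over all genes and arrays, which serves as the floor. Genes that differed by at least 2-fold, or 1 on the log2 scale, were counted as higher or lower. These words describe size in these pools and not variation between mice. The compartments matched their labels by marker genes, with surface markers less far apart on heme. The median level of 8 surface colonocyte markers was 12.3 on control surface and 7.41 on control crypt. It was 12.7 on heme surface and 9.15 on heme crypt. For 8 crypt base and progenitor markers the median level was 6.19 and 8.49 on the control diet and 5.87 and 8.23 on heme, surface before crypt. Array medians over all genes ranged from 5.64 to 5.86. In pooled tissue, fewer cells of a type and less RNA per cell cannot be told apart.

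The windows around the start sites of the members were searched for short motifs because nearly all members differed in the same direction between surface and crypt. RefSeq windows (GRCm38.p6, 250 bases before to 50 after the start) were found for 40 of the 45 genes. The E-box CACGTG, the core that Myc and related factors bind, was present on either strand in 7 of the 40, or 17.5%, against 8.91% of all 17492 protein-coding genes with a window. The ETS core CCGGAAG was present in 14 of the 40 (35.0%), against 12.9%. The NRF1 core GCATGCG was found in 3 (7.5%) against 4.96%, and AAGATGG, a core of the YY1 site, in 3 (7.5%) against 7.18%. CCGGAAG and AAGATGG can share the letters AAG. Tsr1 holds both, but AAGATGG begins 227 bases and CCGGAAG 1 base before the start, so these matches do not overlap. A gene with several windows was counted once if any window held the motif, and a match is a description of the sequence, not of a bound factor. The stretches upstream of 4 start sites are shown, written 5′ to 3′ along the gene with the E-box and ETS matches in capitals. Nop2 was chosen because both motifs lie in this stretch, Rrn3 for its pair of E-boxes, Nhp2 for an ETS match close to the start, and Polr1c because it holds the same ETS core but differed little between the compartments.
Nop2, chr6:125131633-125131882, plus strand: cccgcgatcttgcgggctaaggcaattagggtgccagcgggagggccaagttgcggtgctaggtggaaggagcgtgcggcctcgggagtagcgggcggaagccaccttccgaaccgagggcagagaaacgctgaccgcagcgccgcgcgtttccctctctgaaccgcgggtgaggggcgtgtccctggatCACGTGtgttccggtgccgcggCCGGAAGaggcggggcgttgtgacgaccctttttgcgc
Rrn3, chr16:13780449-13780698, plus strand: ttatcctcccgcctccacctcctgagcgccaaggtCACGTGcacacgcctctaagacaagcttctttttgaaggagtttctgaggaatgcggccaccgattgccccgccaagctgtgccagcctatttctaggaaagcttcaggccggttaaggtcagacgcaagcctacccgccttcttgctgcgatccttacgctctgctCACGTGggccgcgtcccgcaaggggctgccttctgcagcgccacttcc
Nhp2, chr11:51619523-51619772, plus strand: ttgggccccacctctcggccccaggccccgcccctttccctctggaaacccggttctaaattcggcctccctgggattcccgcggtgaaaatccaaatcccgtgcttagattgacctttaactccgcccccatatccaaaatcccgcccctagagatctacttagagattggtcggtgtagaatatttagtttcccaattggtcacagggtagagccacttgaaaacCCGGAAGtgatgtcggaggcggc
Polr1c, chr17:46248046-46248295, minus strand: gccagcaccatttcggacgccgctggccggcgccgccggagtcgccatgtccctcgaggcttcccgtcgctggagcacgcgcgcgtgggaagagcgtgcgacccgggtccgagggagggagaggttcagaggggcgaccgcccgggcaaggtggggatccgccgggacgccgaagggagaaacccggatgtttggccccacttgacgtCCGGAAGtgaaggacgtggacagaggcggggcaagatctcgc
In Nop2 the E-box begins 60 bases and the ETS core 38 bases before the start. In Rrn3 the E-boxes begin 215 and 48 bases before it. The ETS core begins 23 bases before the start of Nhp2 and 42 bases before that of Polr1c. Holding a motif did not go with a larger difference between compartments. The median difference between surface and crypt on the control diet was -1.58 for the 7 members with an E-box and -1.80 for the 32 measured members without one. For the ETS core it was -1.53 over 13 measured members and -1.80 over the 26 without it.

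Surface and crypt cells of control mice were compared to see how the machinery of ribosome assembly was distributed along the crypt axis without heme. Ribosome biogenesis RNA was concentrated in the crypts. Of the 44 members, 38 were lower by at least 2-fold at the surface and none was higher, with a median of -1.75 (3.36-fold lower) and a range from -2.93 to 0.20. Over all 10864 genes at the floor, 13.5% were lower and 12.0% higher, and the median was -0.05. At 1.5-fold, 41 members were lower and none was higher, against 25.2% and 20.2% of all genes. Below 0 lay 43 of 44 members against 52.5% of all genes, and 1 lay above 0 against 47.4%. All 44 members reached the floor in crypt cells, and 37 reached it in both compartments. The other 7 passed through the crypt array alone and so had to differ. The 3 members just past the size rule were Noc4l (-1.01), Nip7 (-1.06) and Emg1 (-1.09), and those just short of it were Imp4 (-0.92), Bop1 (-0.78) and Ebna1bp2 (-0.70).

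On the heme diet the same comparison gave 40 of 44 members lower in surface cells, against 16.5% of all genes, and none higher, against 15.3%. At 1.5-fold, 42 were lower and none higher, against 27.6% and 24.9% of all genes. Here too 37 members reached the floor in both compartments, and the other 7 (Wdr12, Nip7, Rrp1b, Wdr75, Dkc1, Noc3l and Lyar) passed through the crypt array alone. The median was -1.94 (3.84-fold lower), against -0.05 for all genes, and all 44 differences were below 0 (52.4% of all genes, with 47.6% above 0). In 38 members surface cells were at least 2-fold lower on both diets. The share of all genes that were lower on both diets was not computed. Both crypt arrays lay above both surface arrays in 43 of 44 members, which held for 38.9% of all genes at the floor on any array. The exception was Ubtf. The members ranked much alike on both diets, with Pearson's r of 0.88 and Spearman's rho of 0.82 across the 44 genes. Across all 11147 genes at the floor on any array r was 0.89 and rho 0.88. These correlations are across genes, which are not independent, and are given as a description.

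**Figure D1:**
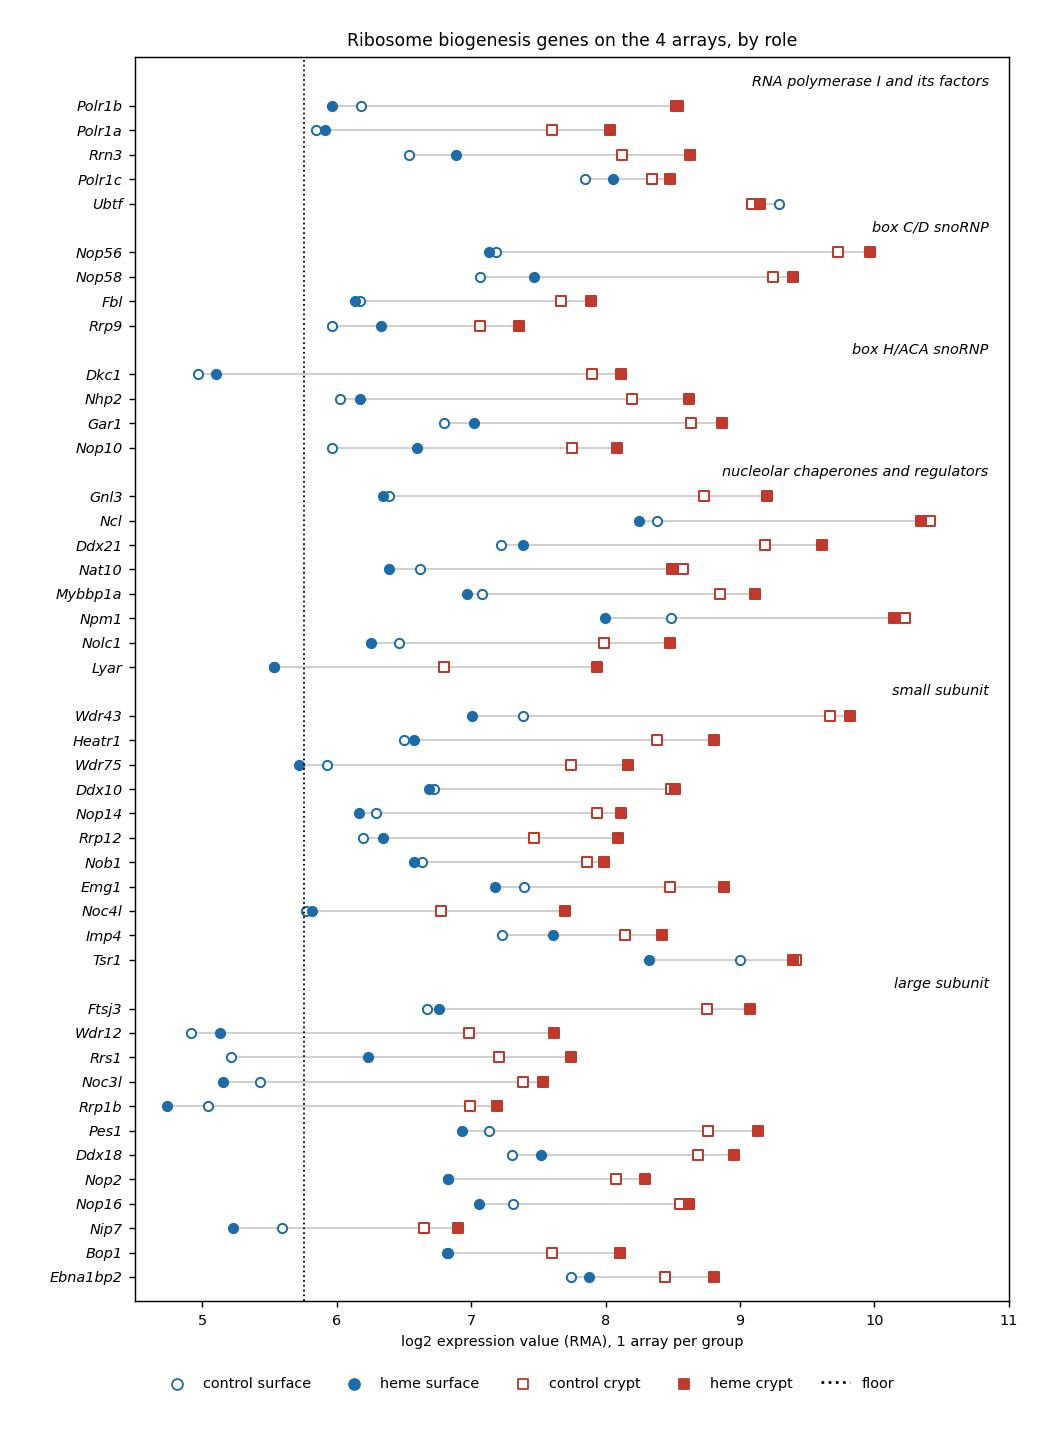
Log2 expression values (x axis, RMA scale) of the 44 measured ribosome biogenesis genes (rows, grouped by role and ordered by the surface-crypt difference on the control diet), with 1 point per array. Circles are surface pools and squares crypt pools, open on the control diet and filled for heme. The dotted line is the floor of 5.75. Squares lie to the right of circles in every row but that of Ubtf.

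By role, transcription by RNA polymerase I was the group with the least uniform difference. Polr1b, the second largest subunit, was 6.18 on control surface, 5.96 on heme surface, 8.53 on control crypt and 8.54 on heme crypt. Polr1a, the largest subunit, was 5.85, 5.91, 7.60 and 8.04 on the same arrays in that order. Both were high in both crypt pools, with surface-crypt differences of -2.35 and -1.75 on the control diet. Rrn3, the factor that makes the polymerase competent to start, was 6.54 and 6.88 on the surface arrays and 8.12 and 8.63 on the crypt arrays, control before heme. Its difference was -1.58 on control feed and -1.75 with heme. Polr1c is a subunit that RNA polymerase I shares with RNA polymerase III, and it was 7.85 and 8.05 in surface cells against 8.35 and 8.48 in crypt cells. Surface cells thus differed by -0.50 for control and -0.43 for heme, short of the size rule. Ubtf, which binds the ribosomal gene repeats and keeps them open, was 9.29 and 9.08 in surface cells and 9.09 and 9.15 in crypt cells. Its arrays overlapped between compartments, with differences of 0.20 and -0.06. Of the 5 genes of this group, 3 were lower in surface cells on each diet.

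The wider set of RNA polymerase I genes had smaller differences than the members. It held 11 genes from a second list (Polr1d, Polr1e, Znrd1, Cd3eap, Twistnb, Taf1a to Taf1d, Tcof1 and Ttf1). Of these, 3 were lower in surface cells on either diet, with medians of -0.76 and -0.81.

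The box C/D snoRNP methylates the precursor rRNA. Its 4 members were lower in surface cells on both diets, with medians of -1.84 and -1.84. The scaffold protein gene Nop56 was 7.19 on control surface, 7.13 on heme surface, 9.73 on control crypt and 9.97 on heme crypt. Its surface-crypt difference was -2.54 (5.83-fold) on the control diet and -2.84 (7.17-fold) with heme. Its partner Nop58 was 7.07 and 7.47 in surface cells and 9.25 and 9.39 in crypt cells, a difference of -2.18 that was smaller on heme (-1.93). The methyltransferase gene Fbl (fibrillarin) was 6.18 and 6.14 in surface cells and 7.67 and 7.89 in crypt cells, for a difference of -1.49 on the control diet. Its pair of probe sets differed in size and not in direction, at -1.90 and -1.09. Rrp9 belongs to the snoRNP that directs the first cuts. It was 5.96 and 6.33 in surface cells and 7.07 and 7.35 in crypt cells, with differences of -1.10 and -1.03.

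The box H/ACA snoRNP converts uridines of rRNA to pseudouridine, and its proteins also belong to telomerase. Its median was the lowest of the 6 roles on the control diet, at -2.00. On heme it was -2.15, against -2.18 for nucleolar chaperones and regulators. Dkc1 (dyskerin), the pseudouridine synthase, was 4.97 and 5.10 in surface cells and 7.90 and 8.11 in crypt cells. Its differences were -2.93 and -3.01 as deposited. Both its surface values lay under the floor, so the size of these differences and their rank among the members are uncertain. The rank of the group's median among the roles includes Dkc1 and is uncertain too. Nhp2 was 6.03 and 6.17 in surface cells and 8.20 and 8.62 in crypt cells, and Gar1 was 6.79 and 7.02 against 8.63 and 8.87. Both lay well apart between the compartments, at -2.17 and -1.84 on the control diet. Nop10, the smallest protein of the complex, was 5.96 on control surface and 6.60 on heme surface, against 7.75 and 8.08 in crypt cells. Its difference was -1.78 on control feed and -1.49 with heme.

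All 8 nucleolar chaperones and regulators were lower in surface cells on both diets, with medians of -1.87 and -2.18. Gnl3 (nucleostemin), a GTP-binding protein abundant in nucleoli of stem and dividing cells, was 6.39 and 6.34 in surface cells and 8.73 and 9.20 in crypt cells. The differences were -2.34 for control and -2.86 for heme. Ncl (nucleolin) was 8.38 and 8.25 in surface cells and 10.41 and 10.35 in crypt cells, and Npm1 (nucleophosmin) was 8.49 and 8.00 against 10.23 and 10.14. Both genes were high in both crypt pools. The rest of the group were Ddx21 (-1.96 on the control diet), an RNA helicase, Nat10 (-1.96), an acetyltransferase of rRNA, Mybbp1a (-1.77), Nolc1 (-1.53), a chaperone of snoRNPs, and Lyar (-1.26). Nat10 was 6.62 and 6.39 in surface cells and 8.58 and 8.50 in crypt cells. Nolc1 was 6.46 and 6.25 in surface cells and 7.99 and 8.48 in crypt cells.

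Among 11 small subunit factors, 9 were lower in surface cells on the control diet and 10 on heme, with medians of -1.27 and -1.83. On the control diet the lowest were Wdr43 (-2.28), Heatr1 (-1.88) and Wdr75 (-1.82), which load early onto the nascent precursor. They were followed by Ddx10 (-1.76) and Nop14 (-1.64). Rrp12 (-1.27), Emg1 (-1.09) and Noc4l (-1.01) differed less, and an order by stage of assembly was not tested. Wdr43 was 7.39 and 7.00 in surface cells and 9.67 and 9.82 in crypt cells. The least different were Tsr1 (-0.42), which acts late on the cytoplasmic precursor of the small subunit, and Imp4 (-0.92). Tsr1 was 9.00 on control surface, 8.32 on heme surface, 9.42 on control crypt and 9.39 on heme crypt, so its difference passed the size rule on heme (-1.07) and not on the control diet. Imp4, which helps to join the precursor rRNA to its snoRNP, was 7.23 and 7.61 in surface cells and 8.15 and 8.42 in crypt cells. Nob1, the endonuclease of the last cut of the small subunit rRNA, differed by -1.22 and -1.42.

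Of 12 measured large subunit factors, 10 were lower in surface cells on the control diet and 11 on heme, with medians of -1.51 and -1.62. The complex of Pes1, Bop1 and Wdr12 is needed to process the large subunit rRNA. Its genes were not alike in size. Wdr12 was 4.91 and 5.13 in surface cells, under the floor, and 6.98 and 7.61 in crypt cells. Pes1 was 7.13 and 6.93 against 8.76 and 9.13, and Bop1 was 6.82 and 6.83 against 7.60 and 8.11. The differences on the control diet were -2.07 for Wdr12, -1.63 for Pes1 and -0.78 for Bop1, and on heme they were -2.48, -2.20 and -1.28. Ebna1bp2, an early large subunit factor, was 7.75 and 7.87 in surface cells and 8.44 and 8.81 in crypt cells, short of the size rule on both diets. Ftsj3 (-2.08), an rRNA methyltransferase, was 6.67 and 6.76 in surface cells and 8.75 and 9.07 in crypt cells. Rrs1, Noc3l and Rrp1b were lower at the surface by the size rule too, but their control surface values lay under the floor, as did that of Wdr12, so the sizes are uncertain. Nop16 was 7.31 and 7.06 in surface cells and 8.55 and 8.62 in crypt cells, a difference of -1.24.

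**Figure D2:**
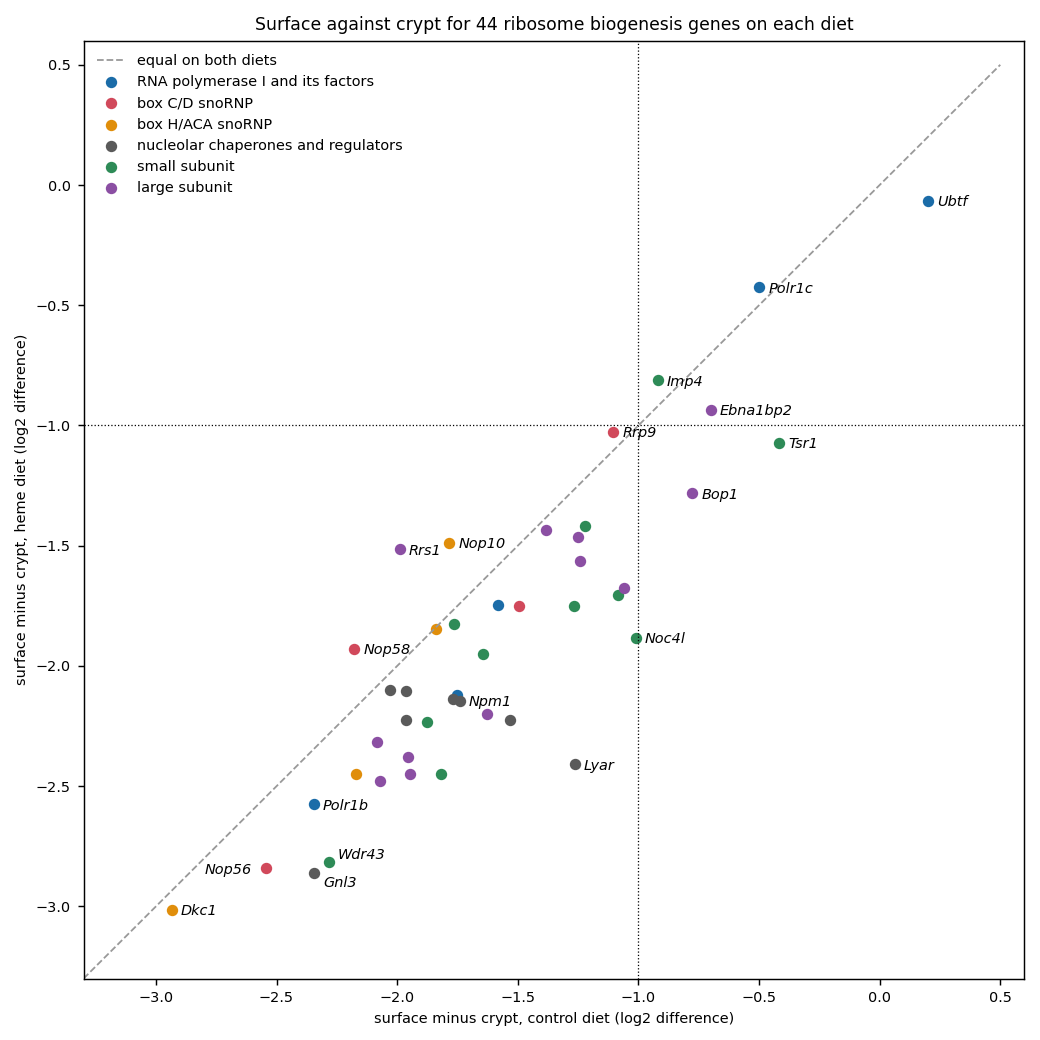
Surface minus crypt log2 difference on the control diet (x axis) against that on the heme diet (y axis) for the 44 members, coloured by role. The dashed line marks equal differences and the dotted lines the 2-fold limit of -1. Most points lie below the dashed line (38 of 44), Dkc1, with surface values under the floor, is at the lower left and Ubtf and Polr1c are at the upper right.

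A second list of 123 other ribosome assembly genes was examined beside the members, and 119 were measured. On the control diet 67 of 117 at the floor were lower in surface cells and 1 was higher, with a median of -1.12. On heme 81 of 117 were lower and 2 higher, with a median of -1.42. The largest differences on the control diet were those of Naf1 (-2.62, with its surface values under the floor), an assembly factor of the H/ACA snoRNP, Mdn1 (-2.22), a giant remodelling ATPase, Nifk (-2.16) and the helicase gene Ddx56 (-2.06). On the other side, Sbds was higher by the size rule on both diets and Eif6 on heme. Eif6 keeps the new large subunit from joining the small one, and Sbds helps to release it in the cytoplasm. Sbds was 10.01 and 9.75 in surface cells and 8.50 and 8.45 in crypt cells, with differences of 1.52 and 1.30. Eif6 was 10.15 and 10.92 in surface cells against 9.53 and 9.91 in crypt cells, with differences of 0.62 and 1.01.

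Other gene groups also differed between the compartments on the control diet. The median of 53 cytosolic ribosomal protein genes was -1.08, with 31 lower, and the median of 11 mitotic genes was -1.79, with 11 lower. The median was -1.61 over 12 DNA replication genes, 8 of them lower, and 0.95 over 7 pan-epithelial genes, 3 of them higher. For smooth muscle and fibroblast markers the median was -0.37, with 5 of 12 lower and 1 higher. Immune markers had a median of 0.24 and endothelial markers of 0.86. The part of these groups in the members' difference was not tested. When arrays were centred on the ribosomal protein genes, the median of all genes became 1.16 for control and 1.11 for heme. The members' medians were then -0.60 and -0.83, with 7 and 19 lower, and Ubtf was higher in surface cells by 1.35 and 1.05 on the log2 scale. On that scale 34 of 44 members lay below 0 for control and 38 for heme. The medians of the wider small and large subunit lists were above 0 on the control diet and below 0 on heme.

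**Figure D3:**
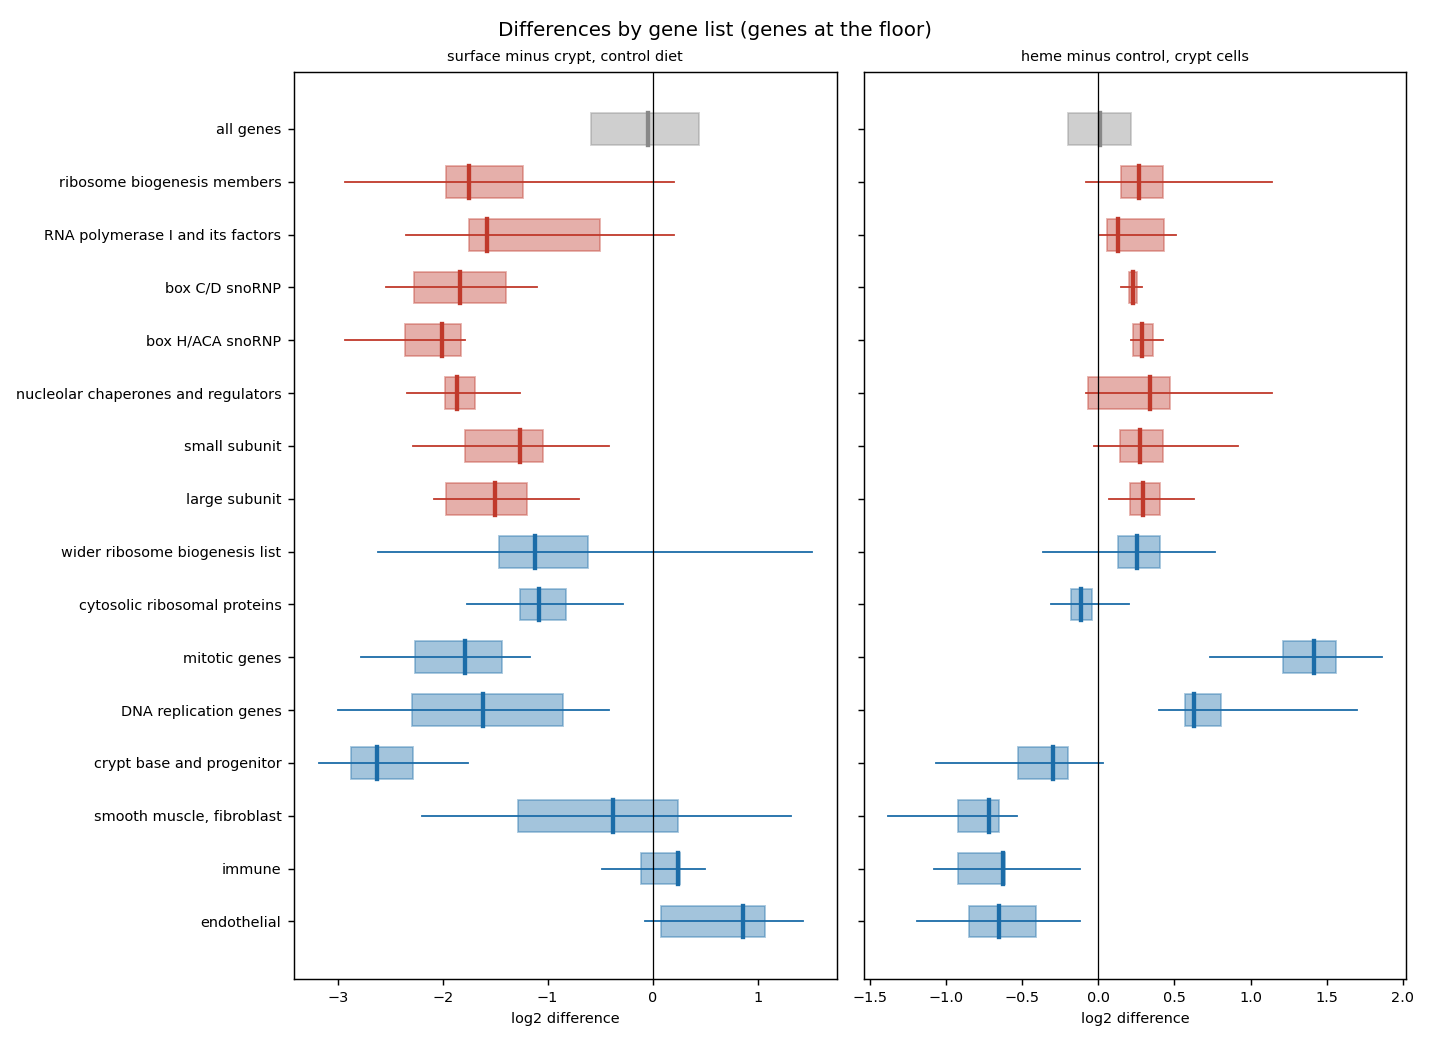
Log2 differences by gene list for surface minus crypt on the control diet (left) and heme minus control in crypt cells (right), over genes at the floor. Thick bars are medians, boxes the quartiles and thin lines the full range (range not drawn for all genes). The medians of the members and their 6 roles (red) lie left of 0 in the left panel and just right of 0 in the right panel, where mitotic genes have a median of 1.42.

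The comparison of heme with control in crypt cells asks how heme in the diet changes the proliferating compartment. As a group, ribosome biogenesis genes lay slightly above their control values on heme. Of the 44 members, 40 lay above 0, against 51.5% of all genes, with a median of 0.26 against 0.01 for all 10491 genes. Few differences were large. By the size rule, 1 member was higher (1.78% of all genes) and none was lower (1.19%). At 1.5-fold 4 were higher (5.89% of all genes) and none was lower (5.6%), and 4 lay below 0 (48.4% of all genes). The 3 members just short of the 2-fold limit were Noc4l (0.92), Wdr12 (0.63) and Rrp12 (0.63).

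Lyar, a nucleolar zinc finger protein linked to cell growth, was the member past the limit. It was 6.80 on control crypt and 7.94 on heme crypt, a difference of 1.14 (2.21-fold), and 5.53 on each surface array, under the floor. With 32 added to the linear values before taking log2, its difference was 0.95. Noc4l, a small subunit factor that works with Nop14, was 6.78 on control crypt and 7.70 on heme crypt, and 5.77 and 5.81 on the surface arrays. Its partner Nop14 differed by 0.18. Wdr12 and Rrp12, the latter an assembly and export factor, were 6.98 and 7.47 on control crypt and 7.61 and 8.09 on heme crypt. On the surface arrays Rrp12 was 6.20 and 6.34. Of the partners of Wdr12, Bop1 differed by 0.51 and Pes1 by 0.37.

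The remaining roles had small differences in heme crypt cells that mostly shared a sign. All 5 polymerase genes were above 0 (median 0.13), from Polr1b at 0.01 to Rrn3 at 0.51. All 4 box C/D genes (median 0.23) and all 4 box H/ACA genes (median 0.29) were above 0 and none exceeded 0.42. All 12 measured large subunit factors were above 0 (median 0.30), as were 10 of 11 small subunit factors (median 0.27). The 4 members below 0 were Npm1 (-0.08), Nat10 (-0.08), Ncl (-0.07) and Tsr1 (-0.03). Nolc1 (0.49) and Gnl3 (0.47), of the same group as Ncl and Npm1, were above 0. In the wider list 105 of 117 genes were above 0, with a median of 0.26 and none past 2-fold, led by Mrto4 (0.76), Exosc8 (0.75), Mphosph10 (0.71) and Tbl3 (0.67). The RNA exosome, which trims rRNA ends, had a median of 0.47 over 10 genes, all above 0.

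The heme crypt pool differed from the control crypt pool in other groups too. The 11 mitotic genes had a median difference of 1.42, with 9 higher by the size rule, and the 12 DNA replication genes 0.63, with 2 higher. The 53 ribosomal protein genes were on the other side, with 43 below 0 and a median of -0.12. Smooth muscle and fibroblast markers were at least 1.5-fold lower in 10 of 12 genes, and their median level was 8.92 on control crypt and 8.15 on heme crypt. Immune markers were at least 1.5-fold lower in 5 of 6 at the floor (median level of 9 genes 7.20 and 6.30), and endothelial markers in 4 of 6 (6.74 and 6.18). The immune genes Cd79a and Itgam lay under the floor on all 4 arrays. Of 8 surface colonocyte markers, 4 were higher on heme, with median levels of 7.41 and 9.15, and pan-epithelial markers had a median difference of -0.04. The 8 crypt base and progenitor markers had a median difference of -0.30, with 7 below 0 and 1 above. By the size rule 1 of them was lower and none was higher. The part of these shifts in the members' difference was not tested.

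In surface cells, the members stood on both sides of 0 between heme and control. Of 44 members, 38 reached the floor on at least 1 surface array, with 18 above 0 and 20 below, against 48.5% and 51.4% of all genes. This split was 24 and 14 with array medians as the centre and 28 and 13 with ribosomal protein centring. These centrings moved all genes up as well, to medians of 0.10 and 0.14, beside 0.09 and 0.13 for the members. As deposited, the members' median was -0.02 and that of all 10282 genes was -0.02. The 6 members under the floor on both surface arrays were Wdr12, Rrp1b, Dkc1, Noc3l, Nip7 and Lyar, with differences from -0.36 to 0.22. By the size rule 1 member was higher (3.62% of all genes) and none was lower (2.01%). At 1.5-fold, 2 were higher and 1 lower, against 10.5% and 7.92% of all genes, so these counts are near or below the background.

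The member past the limit in surface cells was Rrs1, which brings a small ribonucleoprotein into the large subunit. It was 5.22 on control surface, under the floor, and 6.23 on heme surface, a difference of 1.01 that became 0.63 with 32 added to the linear values. Its crypt values were 7.20 and 7.74, a difference of 0.54 that lies short of the size rule. Nop10 followed at 0.63, Nop58 at 0.40 and Imp4 at 0.38. For the helicase gene Ddx18 the probe sets stood on opposite sides of 0, at 0.50 and -0.07, around a mean of 0.22. On the other side were Tsr1 at -0.68, Npm1 at -0.49 and Wdr43 at -0.38. The wider list had a median of -0.05 over 98 genes at the floor, none of them past 2-fold, with Gnl3l at 0.80, Eif6 at 0.77 and Utp20 at -0.89 farthest from 0.

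**Figure D4:**
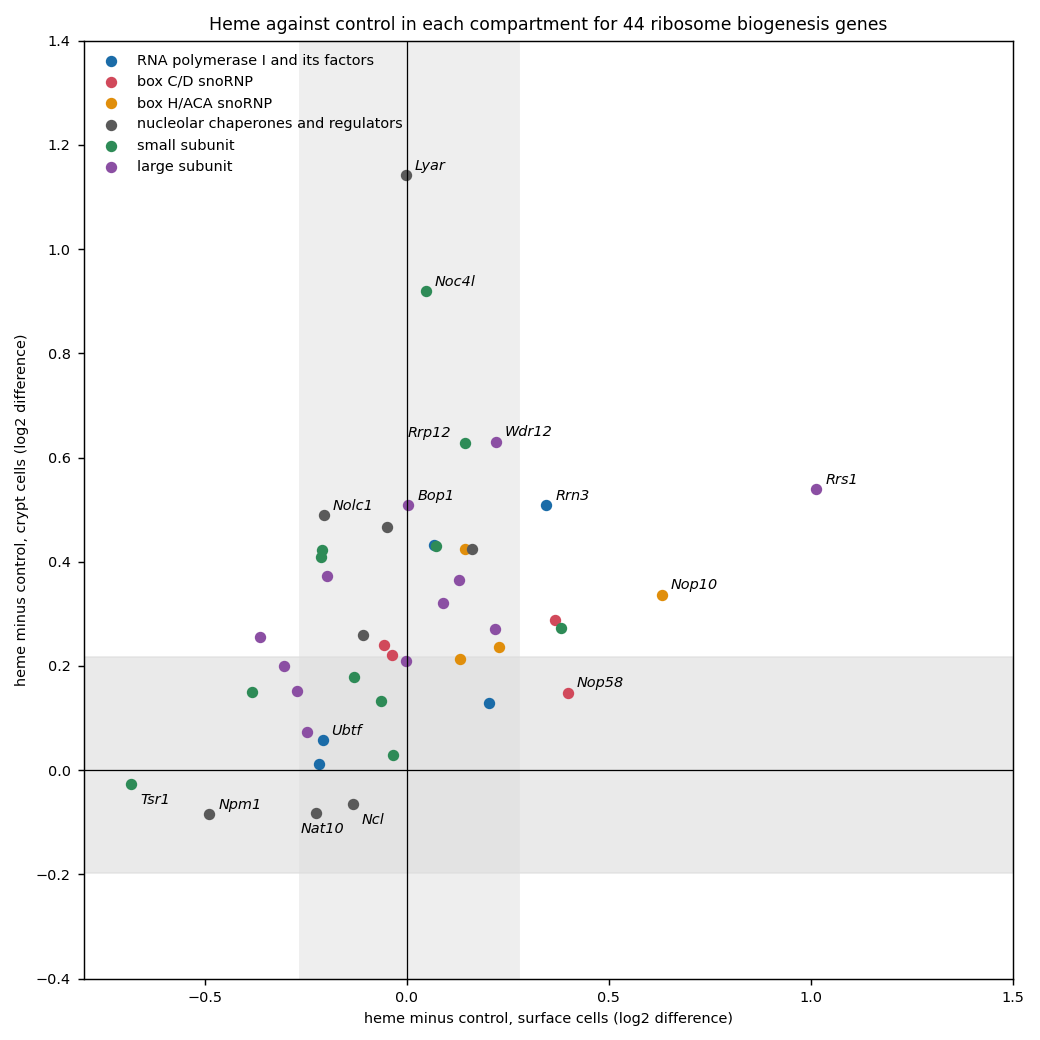
Heme minus control log2 difference in surface cells (x axis) against that in crypt cells (y axis) for the 44 members, coloured by role. Grey bands span the quartiles of all genes in each comparison. Points spread to both sides of 0 along the x axis and lie above 0 along the y axis for 40 of 44 members, with Lyar highest and Rrs1 farthest to the right.

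The heme differences of both compartments were then subtracted, surface minus crypt. This difference was below 0 in 38 of 44 members, against 52.2% of all genes, with a median of -0.29 against -0.02. By the size rule 1 member was lower, Lyar at -1.14 (2.17% of all genes), and none was higher (3.29%). At 1.5-fold, 7 were lower (8.18% of all genes) and none higher (10.1%). The 7 were Lyar, Noc4l (-0.87), Nolc1 (-0.69), Tsr1 (-0.66), Wdr75 (-0.63), Emg1 (-0.62) and Nip7 (-0.62). Of these, Nip7 and Lyar had both surface values under the floor. The 6 members above 0 (47.8% of all genes) were Rrs1 (0.47), Nop10 (0.29), Nop58 (0.25), Imp4 (0.11), Rrp9 (0.08) and Polr1c (0.07). In signs, 20 members were above 0 in both compartments, 20 were below 0 in surface cells and above 0 in crypt cells, 4 were below 0 in both, and none was above 0 in surface cells alone. Of all genes, 31.4% were above 0 in both and 19.7% below 0 in surface and above 0 in crypt cells. The shares of all genes in the remaining sign classes were not computed. The sign counts of the members include the 6 with both surface values under the floor. Across the 44 members, Pearson's r between the heme differences of both compartments was 0.38 and Spearman's rho 0.49. Over all 11147 genes these were 0.41 and 0.41.

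By role, this subtraction gave medians of -0.48 for small subunit factors, -0.39 for chaperones and regulators, -0.36 for large subunit factors and -0.23 for polymerase genes. For the box C/D and H/ACA snoRNPs the medians were -0.09 and -0.04, with 2 of 4 and 1 of 4 genes above 0. The difference between roles was not tested. The mitotic genes had a median of -1.12 on the same measure and the ribosomal protein genes 0.02. In the wider list the median was -0.29 and 2 genes were lower, the exosome genes Exosc2 (-1.16) and Exosc1 (-1.09). Over the 4 arrays, 39 of the 44 members had their highest value on the heme crypt array, against 27.4% of all genes.

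**Figure D5:**
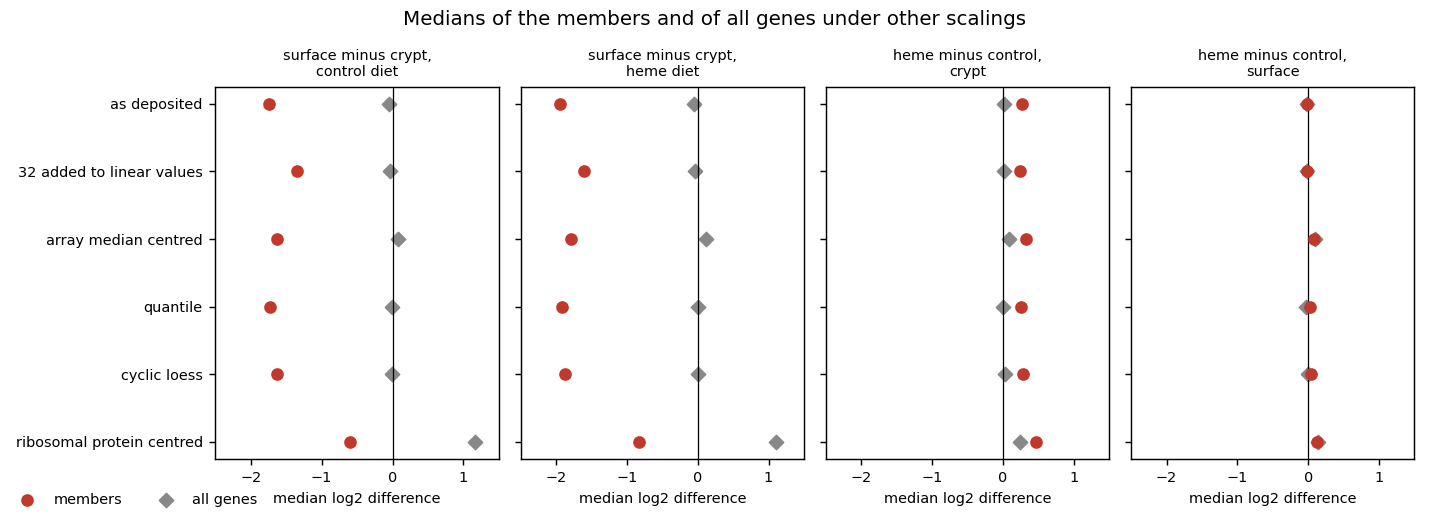
Median log2 difference of the members (circles) and of all genes (diamonds) in 4 comparisons (panels) under the deposited scale and 5 other scalings (rows). The medians of the members lie left of those of all genes in both surface-crypt panels under each scaling shown. With ribosomal protein centring the medians of all genes become 1.16 and 1.11 and those of the members -0.60 and -0.83.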

How the data were processed

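Per the submitters' processing notes, the authors used RMA to make 1 log2 value for each probe set and array. RMA subtracts background, equalises probe distributions and summarises probes. Its version, and which arrays were normalized jointly, were not stated in the labels used here. Per the labels' protocols, 100 ng of pooled RNA was labelled for each array. Of the 35556 probe sets, 21789 had 1 symbol in the platform annotation (updated to GRCm38.p6) and were averaged per gene, and 1621 with several named no gene. Differences, medians and counts were computed in Python 3.11.15 with pandas 2.3.3, and cyclic loess with limma 3.58.1. The size rule was tested on simulated data. Precision is limited by the number of arrays. The alternatives were other scalings, floors, fold limits and probe set rules. The members, lists and roles were chosen with earlier results of these data known. Values on all arrays are given for members of the named complexes and for the 4 largest differences each way. Genes of the second list were named from among its 4 largest each way per comparison, not all of which are given, and its polymerase genes are listed by name. Marker genes at or under the floor were named after their values were seen.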

Additional observations from a re-analysis of the deposited data

Results flagged for a closer look

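Lyar was flagged because its heme differences in surface and crypt cells lay more than 2-fold apart. By this measure 2.17% of all genes were at least 2-fold lower and 3.29% higher, so 1 such member of 44 is near the background. The heme difference of Lyar was 0.00 in surface cells, where both values were 5.53 and under the floor. In crypt cells it was 1.14, which gives -1.14 for surface minus crypt. The difference between compartments was not tested, as each group holds 1 array. It was -0.96 with 32 added to the linear values and -1.18 with ribosomal protein centring.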

How the results depend on the processing

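No paired analysis was possible because each group holds 1 array. A median was taken as moved when it changed by more than 1.5-fold, and a count when it changed by more than 1.5 times. The medians of the members moved only with ribosomal protein centring, to -0.60 (surface minus crypt, control diet) and -0.83 (heme diet). With it, the members lower in surface cells numbered 7 on the control diet and 19 on heme, and 2 were higher on heme in crypt cells. Rrp9 (0.0466), Nip7 (0.0922), Noc4l (0.14) and Emg1 (0.0652) of the members at least 2-fold lower, then turned above 0 on the control diet, and Rrp9 (0.0845) and Tsr1 (0.0386) on heme. So did the medians of the wider list (0.0831), of its small (0.08) and large (0.0854) subunit factors and of the ribosomal proteins themselves over genes at the new floor (0.0702 on the control diet, 0.0193 on heme). The split of all genes on the control diet moved from 1301 higher and 1464 lower to 6812 and 151, and on heme from 1637 and 1763 to 6692 and 348. For heme against control it moved from 372 and 207 to 551 and 142 in surface cells and from 187 and 125 to 299 and 51 in crypt cells. With array medians as the centre these splits were 467 and 158 in surface cells, 225 and 94 in crypt cells, and 1981 and 1399 for surface against crypt on heme. At a 3-fold limit, 25 members were lower in surface cells on the control diet, as were 528 of all 10864 genes. Members higher on heme numbered 0 in surface cells and 0 in crypt cells, beside 141 of 10282 and 32 of 10491 genes. In the difference of heme differences 0 members were lower, beside 35 of 11147 genes. At 1.5-fold these heme counts of members were 2, 4 and 7, and 1 member was lower on heme in surface cells. With 32 added to the linear values they were 0, 0 and 0, and with the floor raised by 1 no member was higher on heme in surface cells (0). The members' count above 0 on heme in crypt cells was 38 with quantile normalization and 44 with ribosomal protein centring. Shares of all genes above 0 were not computed on these scales. The median of all genes was -0.003 with quantile normalization and 0.24 with ribosomal protein centring, which thus moved all genes up as well. Of 214 differences of single members, 82 moved by over 1.5-fold with ribosomal protein centring and 8 with 32 added. The other alternatives run left the medians and counts of the members within these limits. The causes were not tested.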

Other observations

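Genes of the Myc network, which many ribosome biogenesis genes respond to, were looked at beside the members. Myc was 6.05 on control surface, 5.30 on heme surface, 8.80 on control crypt and 8.56 on heme crypt, so its surface-crypt difference was -2.76 (control) and -3.26 (heme). The heme surface value lay under the floor, so the size of the difference on heme is uncertain. In crypt cells Myc differed by -0.24 between heme and control, and the members' median was 0.26. A link between Myc and the members' differences was not tested. The Myc antagonist gene Mxd1 was 11.8 and 11.4 in surface cells and 7.48 and 7.88 in crypt cells, a difference of 4.35 on the control diet and 3.57 on heme. Max, the shared partner of both, was also higher in surface cells (2.73 and 2.16), as was the antagonist gene Mxi1 (1.70 and 2.02). Mycl was lower in surface cells (-1.09 and -1.21), with both surface values under the floor. Mnt (0.23 and 0.09), Mlx (0.49 and 0.75), Mxd4 (-0.39 and -0.28) and Mga (-0.56 and -0.85) did not reach 2-fold on either diet, and Mycn and Mxd3 lay under the floor on all 4 arrays.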
